A study of Helianthus annuus with 24 samples.

Results

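Of 42063 contigs assembled from sunflower (Helianthus annuus) RNA, 9 had no match in Arabidopsis or UniRef and were abundant in the floral nectaries of every line sampled while scarce in leaf. They were chosen by their measured levels: a mean under 10 over the 3 leaf libraries and a mean of at least 500 in each of the 7 nectary lines, with the annotation columns empty. Unannotated contigs numbered 22573 in all, of which 291 reached 500 in every nectary line and 5738 lay under 10 in leaf. The 9 are Helianthus14850, Helianthus13337, Helianthus36795, Helianthus28296, Helianthus19597, Helianthus28297, Helianthus12407, Helianthus42148 and Helianthus34137, in order of their mean nectary level.

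The study asked how nectaries of lines with different nectar output differ. The crosses, 6 interspecific lines, were 412 and 441 with low nectar production, 452 and 456 with medium, and 434 and 467 with high. ER, a maintainer line, carries no nectar class, and the leaf libraries are assigned to line 434 by their labels but to ER by the series text. There were 8 groups of 3 libraries, or 24 libraries. All plants shared a greenhouse at 23 °C with 16 h of light, and no group was treated. Nectaries were cut by hand from secreting florets of plants about 40 days old, 4 to 8 h after dawn, and about 50 of them from different plants made up a library. A p-value among lines therefore measures the spread between pools of nectaries, and a nectary class rests on 2 lines.

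The floral nectary is a small gland at the base of the floret. Sucrose that reaches it is exported by SWEET9 and split by cell wall invertases, as known from Arabidopsis and wild tobacco, and jasmonate-responsive MYB factors such as MYB21 act in flower maturation. A contig is a stretch of RNA sequence joined from overlapping reads. Contigs without a match may come from untranslated regions, from noncoding RNA or from proteins that have diverged too far to be recognised, and which of these holds for the 9 was not tested. No sequence or length of a contig was used here, so no function is given to any of them and their levels cannot be compared with each other.

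Values are upper-quartile-normalized expression scores, rounded to whole numbers by the authors. Reads per library, estimated from the steps between low scores, were 8.45 to 16.1 M, and 1 read was worth 0.678 to 1.5 units (1.14 to 1.36 in leaf). As sums, the leaf and nectary marker lists followed the labelled tissues. Matches to 7 of 10 leaf genes, such as Rubisco small subunit, held 5.19% to 6.77% of the leaf libraries and 0.00389% to 0.0236% of the nectary libraries. Matches to 12 of 22 nectary genes held 0.532% to 4.72% of nectary libraries and 0.0305% to 0.0355% of leaf libraries. Not every gene of the nectary list did so: the ARF6 match Helianthus34032 averaged 1295 in leaf and 954 in nectaries. Of the pollen and tapetum list only ANX1 and ANX2 had a match. The ANX2 match Helianthus29498 was higher in leaf (544) than in nectaries (121). Of the ovule list only STK had a match, which held 0.00176% to 0.00254% of leaf libraries and 0% to 0.00021% of nectary libraries. In such bulk samples, fewer cells of a type and less RNA per cell cannot be told apart.

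Some libraries were low for these contigs. Replicate 2 of line 456 was the lowest of its line for 9 of 9 contigs, and for 8 of them it lay under 0.5 of the mean of the other 2 libraries (median ratio 0.34, range 0.129 to 0.729). Over the 2979 contigs with every line mean at least 500, this library was the lowest of its line for 55.8% and under that limit for 8.73% (median ratio 0.895). Marker lists moved in it too. The nectary list held 0.532% of it, the lowest of the 21 nectary libraries, against 1.499% and 1.495% in replicates 1 and 3, while the leaf list (0.0236%), the pollen list (0.0394%) and the phloem list (0.166%) were at their highest. Replicates 1 and 3 held 0.00795% and 0.00891% for leaf, 0.0229% and 0.0244% for pollen and 0.0795% and 0.0688% for phloem. The phloem list also held 0.144%, 0.134% and 0.152% in replicates 1 to 3 of line 452, so a high share was not particular to this library. Whether the shifts of the marker lists in replicate 2 of 456 bear on the levels of the 9 contigs was not tested. Replicate 3 of line 452 was the lowest of its line for 4 of the 9, and Helianthus36795 stood at 17 there. In this library 12% of the 2979 contigs lay under 0.5 of the mean of its partners, and its scaling factor by median ratio was 0.771. The nectary list held 0.561% of it, against 0.989% and 0.932% in replicates 1 and 2. Other libraries were low for several of the 9, with fewer of the 2979 contigs under 0.5. Replicate 1 of 434 was the lowest of its line for 8 (median ratio 0.801), and replicate 2 of 441 and replicate 2 of ER for 6 each (0.617 and 0.723), with 0.94%, 2.42% and 0.671% of the 2979 contigs under 0.5. These libraries were the lowest of their line for 39.8%, 32.2% and 48.6% of the 2979 (median ratios 0.992, 1.03 and 0.945). Replicate 3 of 452 was the lowest for 49.6% (0.891). Comparisons of lines are given with and without replicate 3 of 452 and replicate 2 of 456 together, a pair chosen after the data were seen. Among the 21 nectary libraries they had the largest shares of the 2979 contigs under 0.5. Other single libraries are named where leaving them out lost a call, while calls gained in this way are named only in part.

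**Figure D1:**
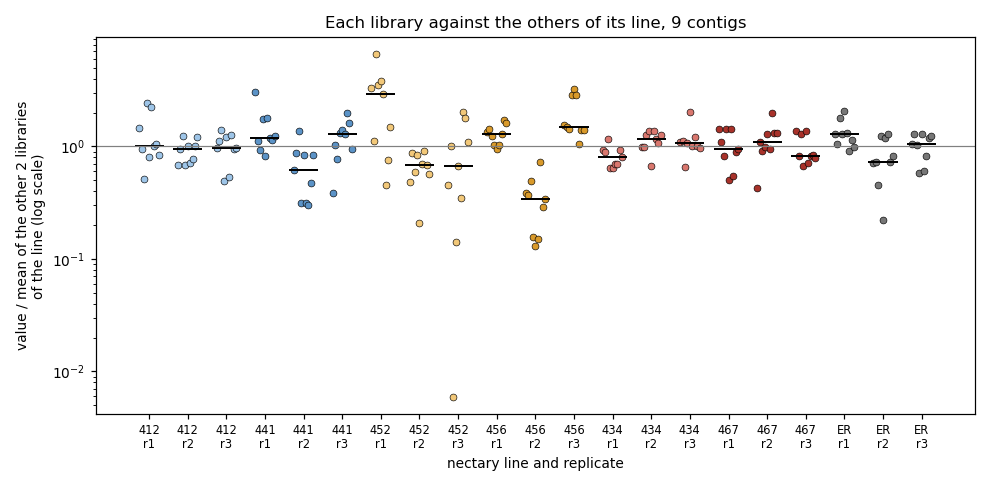
Each point is 1 of the 9 contigs in 1 nectary library, divided by the mean of the other 2 libraries of the same line (log scale), and bars are medians over the 9 contigs. Replicate 2 of line 456 has all 9 points below 1 (median 0.34), and the lowest point of the plot is Helianthus36795 in replicate 3 of line 452 at 0.0059.

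Leaf levels were close to the detection limit but above 0 for every contig in at least 1 library, so no contig was listed at 0 in all 3. Helianthus34137 had the lowest leaf values, 2, 1 and 0, which together correspond to an estimated 3 reads. Helianthus14850 had 2, 2 and 0, also an estimated 3 reads. Helianthus28297 had the highest, 11, 10 and 7, an estimated 23 reads. The leaf values therefore rest on few reads and give no order among the contigs. Of the others, Helianthus19597 read 2, 2 and 4 and Helianthus28296 read 5, 0 and 4. Helianthus36795 (3, 1 and 8), Helianthus42148 (5, 6 and 1), Helianthus13337 (9, 6 and 8) and Helianthus12407 (10, 5 and 8) completed the set. Because the levels in leaf and nectary chose the contigs, this contrast is described with no test.

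Just inside the leaf threshold lay Helianthus28297 (leaf mean 9.33) and Helianthus12407 (7.67), and just outside it Helianthus16304 (12.3) and Helianthus3808 (12.7). On the nectary side the closest were Helianthus19597 (546 in ER) and Helianthus42148 (619 in line 456), with Helianthus1658 (461 in line 434) and Helianthus14311 (445 in line 456) just below it. A leaf mean under 5 would keep 6 of the 9, a leaf mean under 20 would give 18 contigs, and a line mean of at least 250 or 1000 would give 22 or 3.

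**Figure D2:**
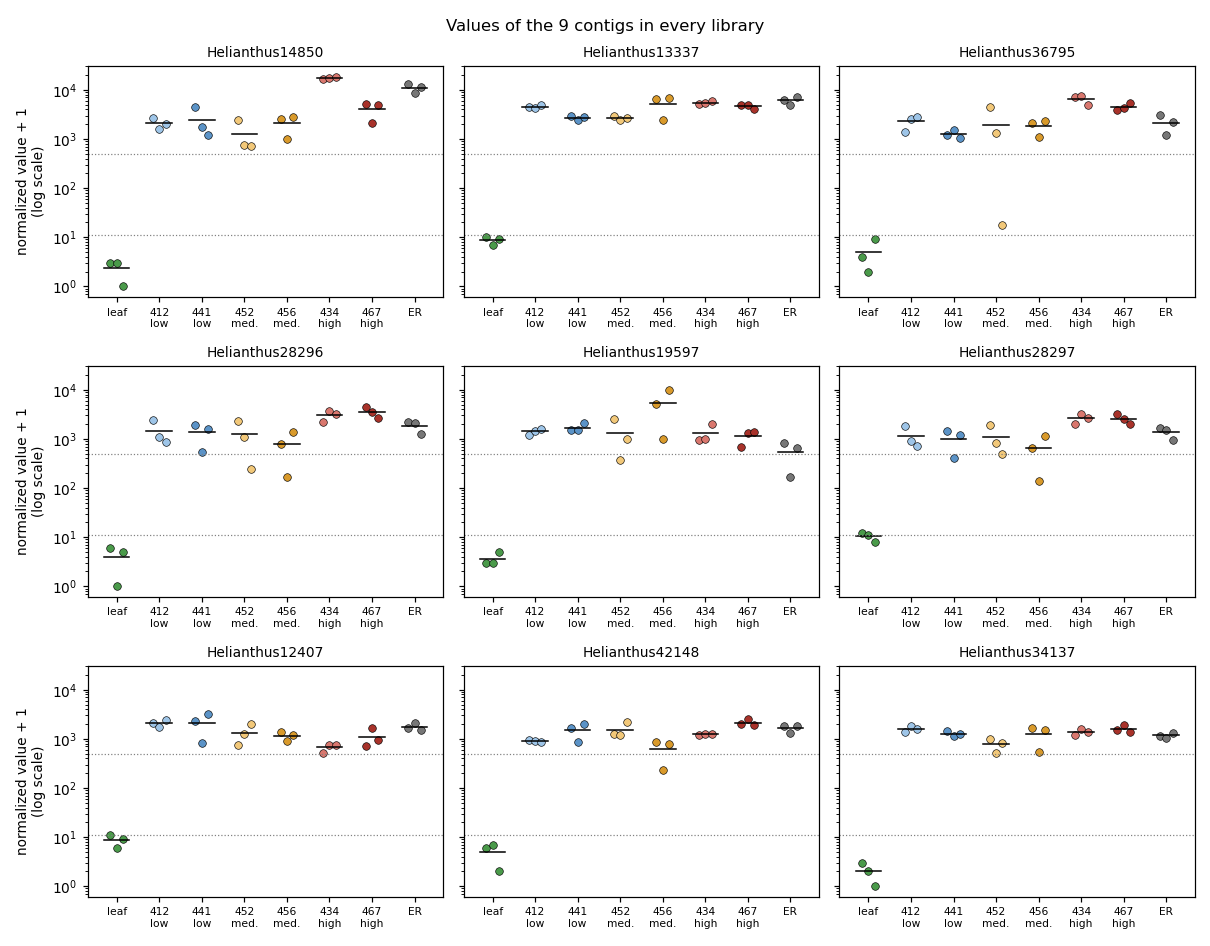
Normalized value + 1 of each of the 9 contigs on a log scale in 3 leaf and 21 nectary libraries, grouped by line and nectar class, with bars at the group means and dotted lines at the 2 thresholds of the choice (10 and 500). Leaf values lie between 0 and 11, and nectary values between 17 and 18402.

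Helianthus14850 had the widest range among lines of the 9. Its values were 16663, 17170 and 18402 in the high line 434, 5076, 2134 and 4992 in the high line 467, and 12915, 8570 and 11381 in ER. It read 2633, 1589 and 2030 in line 412 and 4452, 1742 and 1196 in line 441, both low. The medium lines gave 2388, 745 and 713 in 452 and 2536, 1020 and 2746 in 456. All libraries of 434 and ER lay above every library of the other 5 lines, and the ratio of the highest to the lowest line mean was 13.6 (17412 ± 894 in 434 against 1282 ± 958 in 452, SD, n = 3 each). The high and low classes nevertheless overlapped, through replicate 2 of line 467.

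Helianthus28296 and Helianthus28297 carry consecutive numbers and followed each other closely. Helianthus28296 read 2228, 3741 and 3197 in line 434, 4472, 3531 and 2676 in line 467, and 2201, 2135 and 1252 in ER. For the low lines 412 and 441 its values were 2389, 1104 and 869, and 1898, 549 and 1620. Lines 452 and 456 had 2357, 1097 and 244, and 793, 169 and 1383. Both high lines had the highest means, at 3055 ± 766 and 3560 ± 898, and the lowest of their 6 libraries (2228) fell just under the highest low library (2389). Helianthus28297 read 2044, 3224 and 2667 in line 434, 3234, 2485 and 2034 in line 467, and 1641, 1549 and 969 in ER. The low lines gave 1844, 921 and 732, and 1427, 407 and 1190. Its medium libraries read 1933, 835 and 482 in 452, and 661, 135 and 1142 in 456. Here all 6 high libraries lay above all 6 low and all 6 medium ones. The ratio of Helianthus28296 to Helianthus28297 within a library had a median of 1.29 and was above 1 in 20 of 21 nectary libraries; the exception was replicate 3 of line 452, at 0.506.

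Helianthus36795 was also highest in the high lines, with 7164, 7580 and 4812 in 434 and 3979, 4245 and 5340 in 467. Line 412 gave 1403, 2609 and 2821, line 441 gave 1217, 1553 and 1066, and ER gave 3056, 1202 and 2203. In the medium lines it read 4429, 1329 and 17 in 452, and 2131, 1088 and 2321 in 456. The high and low libraries did not overlap. Line 452 alone ran from 17 to 4429.

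Helianthus13337 was the steadiest of the 9 within lines, with a median coefficient of variation of 8.45% among replicates. It read 6348, 4894 and 7224 in ER, 5060, 5392 and 5882 in line 434, and 4968, 4997 and 4119 in line 467. Line 412 followed with 4381, 4369 and 4919, and line 456 held 6528, 2451 and 6701. The lowest lines were 441, with 2910, 2486 and 2770, and 452, with 2887, 2437 and 2692. The latter pair fell in different classes, low and medium, and every library of both lay under every library of 412, 434, 467 and ER.

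Helianthus42148 was highest in line 467, at 1961, 2542 and 1884, and in ER, at 1801, 1315 and 1835. Line 434, of the same class as 467, gave 1171, 1282 and 1229. Lines 412 and 441 gave 936, 917 and 878, and 1637, 863 and 2016, while 452 and 456 gave 1255, 1181 and 2167, and 856, 234 and 767. The lines of a class did not overlap in the high and the medium class: no library of 434 reached those of 467, and no library of 456 reached those of 452. Helianthus34137 had the narrowest range among lines, a ratio of 2.06. Its values were 1195, 1621 and 1363 in 434, 1544, 1919 and 1358 in 467, 1410, 1800 and 1550 in 412, and 1439, 1119 and 1225 in 441. It read 1156, 1021 and 1334 in ER, 999, 516 and 823 in 452, and 1665, 544 and 1538 in 456. Its 4 lowest values were all in the medium lines, whose libraries overlapped each other.

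Helianthus12407 had its highest means in the low lines. Lines 412 and 441 held 2125, 1770 and 2475, and 2354, 835 and 3156, and ER held 1650, 2070 and 1542. It read 516, 734 and 753 in line 434, and 699, 1634 and 953 in line 467. Lines 452 and 456 were between, with 751, 1258 and 2019, and 1348, 922 and 1183. All 3 libraries of 434 lay under all 6 low libraries, whereas replicate 2 of 441 lay under replicates 2 and 3 of 467. Helianthus19597 was highest in line 456, at 5194, 977 and 9943, and lowest in ER, at 830, 164 and 644. It read 955, 991 and 1976 in 434, 681, 1325 and 1361 in 467, 1222, 1421 and 1606 in 412, and 1488, 1510 and 2104 in 441. Line 452 held 2557, 369 and 982. The high mean of line 456 (5371 ± 4486) came from replicates 1 and 3, with replicate 2 inside the range of the other crosses.

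The medians over the 9 contigs for the spread among replicates and among lines were above those of contigs of like level. The median coefficient of variation within lines was 33.6% (8.45% to 52.5%), against 12.1% over the 2979 contigs with every line mean at least 500, with Helianthus13337 below that value, and the median ratio of highest to lowest line mean was 4.09 against 1.74. For the 29 annotated contigs that met the same level limits these medians were 21.2% and 3.51. No test was made of these differences.

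Together the 9 contigs held 0.000258% ± 3.47e-05 of the leaf libraries. In nectaries their summed share was 0.315% ± 0.011 in line 434, 0.219% ± 0.0101 in 467, 0.220% ± 0.0432 in ER, 0.161% ± 0.00871 in 412, 0.138% ± 0.0329 in 441, 0.113% ± 0.0369 in 452 and 0.166% ± 0.0936 in 456 (SD, n = 3 each). The 3 libraries of line 434 (0.303% to 0.324%) were above all others, and those of 456 ran from 0.0634% to 0.247%. Helianthus14850 made up 43.9% of the sum in 434 and 39.6% in ER, but 9.75% to 16.0% elsewhere. Without Helianthus14850 and Helianthus13337, an alternative chosen after the data were seen, the order changed: line 434 stood at 0.133%, 467 at 0.143% and ER at 0.084%.

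**Figure D3:**
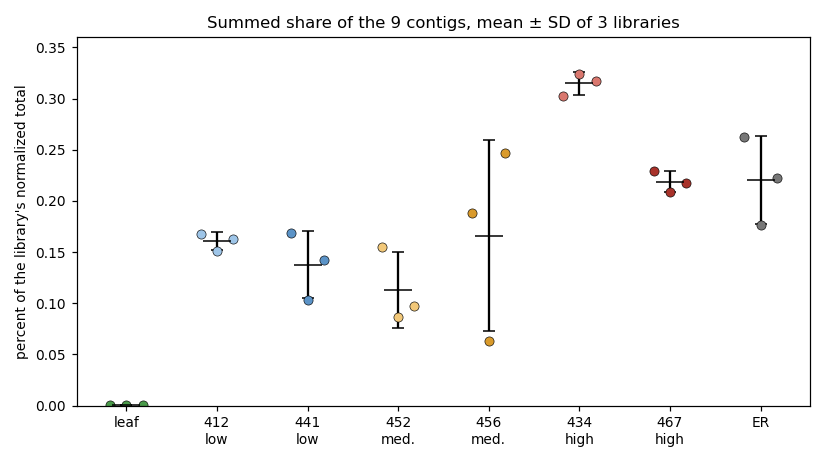
Summed value of the 9 contigs as a percent of the library's normalized total, 1 point per library, with the mean ± SD of 3 libraries per group. Line 434 lies above 0.3% in all 3 libraries, leaf lies at 0.000289% or less, and line 456 has the widest spread.

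The choice used no difference between nectary lines, but its floor of 500 applied to every line mean and so left out contigs with a very low line; the line differences of the 9 are those that such a choice allows. They were tested with limma on log2(value + 1) over 38457 contigs, with Benjamini-Hochberg adjustment over all of them. All 9 contigs were in this fit, each passing the filter of a mean of 10 over the nectary libraries. Of the 9, 5 differed among the 7 lines, where 50.6% of all contigs were called and 58.7% of those with every line mean at least 500. The 5 were Helianthus14850 (adjusted p = 2.165e-05), Helianthus13337 (0.00476), Helianthus42148 (0.00629), Helianthus12407 (0.0272) and Helianthus28297 (0.0318). Helianthus28296 (0.054), Helianthus19597 (0.0619), Helianthus34137 (0.087) and Helianthus36795 (0.156) missed the threshold in the limma test. A share of 5 in 9 is near the background. Without replicate 3 of line 452 and replicate 2 of line 456 all 9 passed (adjusted p at most 0.0197 for Helianthus28296), as against 68.9% of all contigs. Single libraries also decided calls: Helianthus28297 was lost without replicate 2 or 3 of line 434 or replicate 1 or 2 of line 467, and Helianthus12407 without replicate 1 or 3 of 412 or any replicate of 434 (adjusted p up to 0.0892), as well as after rescaling by median ratio (0.0544). The count was 3 without replicate 2 or 3 of line 434 and 8 without replicate 1 of line 452.

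Between high and low lines, 3 contigs were higher and 1 lower, or 4 of 9, where 31.2% of all contigs were called. Of those with every line mean at least 500, 41.2% were called, and 4 of 9 is near that share. Helianthus14850 was 3.92-fold higher (10740 ± 7407 against 2274 ± 1170, SD, n = 6 each; log2 difference 1.97, SE 0.36; limma adjusted p = 0.000378). Helianthus28297 was 2.63-fold higher (2615 ± 536 against 1087 ± 513; log2 difference 1.40, SE 0.46; adjusted p = 0.0261), with no overlap between the libraries of both classes. Helianthus13337 was 1.43-fold higher (5070 ± 580 against 3639 ± 1033; adjusted p = 0.0461). Helianthus12407 was the one that fell, by 1.26 on the log2 scale (882 ± 394 against 2119 ± 778; SE 0.29; adjusted p = 0.00312). Helianthus36795 did not pass (5520 ± 1515 against 1778 ± 747; log2 difference 1.69, SE 0.85; adjusted p = 0.145), although its high and low libraries did not overlap. Helianthus28296 stood at 3308 ± 796 against 1405 ± 688 (adjusted p = 0.058). The fit takes 1 spread from all 21 libraries. Without replicate 3 of 452 and replicate 2 of 456, neither of which is in a high or low line, 7 of 9 were called against 47.6% of all contigs, with Helianthus36795 (adjusted p = 7.81e-05), Helianthus28296 (0.00208) and Helianthus42148 (0.0158) added at the same log2 differences.

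With the line as the unit, 2 against 2, none of the 9 was called between high and low lines (0.78% of all contigs were). The adjusted p in that fit was 0.268 for Helianthus14850, 0.16 for Helianthus28297, 0.118 for Helianthus12407 and 0.509 for Helianthus13337. Helianthus13337 also missed the threshold after rescaling by median ratio (adjusted p = 0.0569) and without any single library of the high and low lines, replicate 2 of 452 or replicate 1 of ER (up to 0.0915). Helianthus28297 missed it without replicate 2 or 3 of 412, replicate 2 of 434, replicate 2 of 441 or replicate 1 of 467 (0.0539 to 0.0766), which left 2 called in each case.

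The same high-line libraries were compared with the medium lines, and 7 of 9 contigs were higher, none lower, where 43.8% of all contigs were called. That share counts both directions, with 9147 of the 38457 contigs higher and 7682 lower. Of contigs with every line mean at least 500, 46.2% were called in either direction. The 7 include Helianthus28296 and Helianthus28297, which varied closely together (r = 0.97). Helianthus36795 differed by 2.56 on the log2 scale (5520 ± 1515 against 1886 ± 1494; SE 0.85; limma adjusted p = 0.0226). This value rested on line 452: it was 1.38 without replicate 3 and 3.36 without replicate 1 of that line, and was called both times. Helianthus14850 differed by 2.49 (SE 0.36; adjusted p = 4.28e-05), Helianthus28296 by 2.20 (SE 0.53; adjusted p = 0.00343) and Helianthus28297 by 1.97 (SE 0.46; adjusted p = 0.00276, no overlap of libraries). Smaller differences were those of Helianthus42148 (0.85, adjusted p = 0.0184), Helianthus34137 (0.69, adjusted p = 0.0215) and Helianthus13337 (0.50, adjusted p = 0.0414). Helianthus19597 stood at 1215 ± 451 in high and 3337 ± 3678 in medium lines (log2 difference -0.72, adjusted p = 0.268), and Helianthus12407 at 882 ± 394 and 1247 ± 439 (-0.53, adjusted p = 0.148). Each of the latter was called as lower when 1 medium library was left out. For Helianthus19597 this was replicate 2 of 456 (log2 difference -1.20, limma adjusted p = 0.0462). For Helianthus12407 it was replicate 1 of 452 (-0.71, adjusted p = 0.0493). The median of all contigs was itself shifted, by 0.11 on the log2 scale. Without the same pair, 6 of these 7 passed, against 41.9% of all contigs, with smaller log2 differences, for instance 1.20 for Helianthus36795 and 1.31 for Helianthus28296, and Helianthus13337 did not (0.27, adjusted p = 0.0746). When the high and medium lines were fitted alone, 3 of 9 were called (Helianthus14850, Helianthus28296 and Helianthus28297) against 29.1% of all contigs, and with the line as the unit only Helianthus28296 was, against 1.57%. Helianthus34137 was lost without replicate 2 of 434, 452 or 467 (adjusted p up to 0.0516), and Helianthus13337 without any replicate of 434, replicate 2 or 3 of 452, replicate 2 of 456 or replicate 1 or 2 of 467 (up to 0.0801).

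Between medium and low lines limma called none of the 9, against 14.7% of all contigs and 9.8% of those with every line mean at least 500. At an unadjusted p under 0.05 there were 2, Helianthus34137 (1014 ± 491 in medium and 1424 ± 241 in low lines; log2 difference -0.62, SE 0.23) and Helianthus12407 (1247 ± 439 and 2119 ± 778; -0.73, SE 0.29). The median over all contigs was -0.15. The log2 differences of the 9 ran from -0.87 to 0.30, and 2 were above 0. Without replicate 3 of 452 and replicate 2 of 456 none was called, against 18.5% of all contigs, and the log2 difference of Helianthus28296 went from -0.84 to 0.05 and that of Helianthus36795 from -0.87 to 0.49. Leaving out replicate 2 of 441, replicate 1 or 3 of 452 or replicate 1 or 3 of 456 gave 1 call each.

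**Figure D4:**
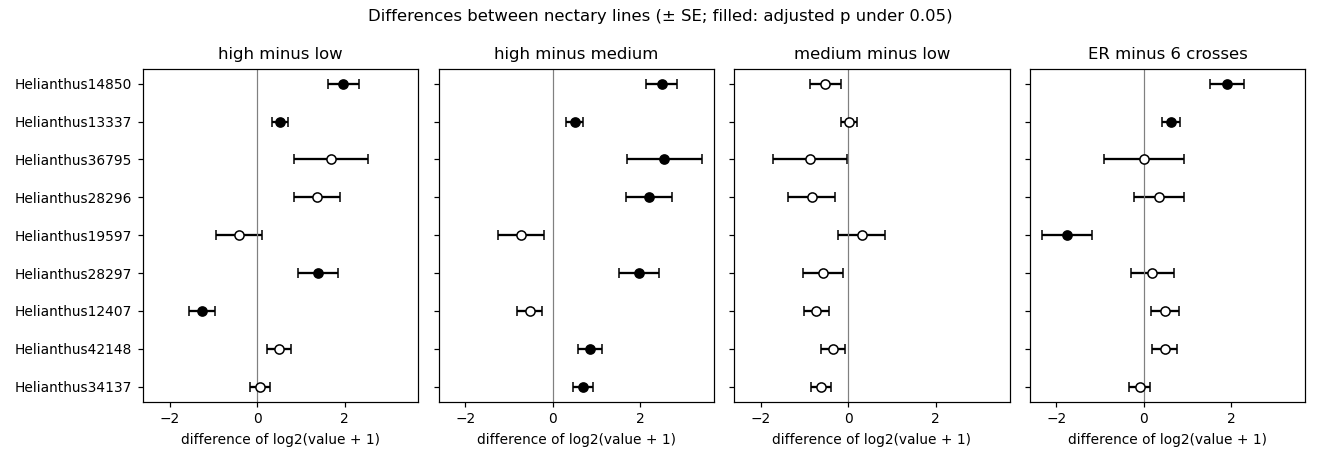
Difference of log2(value + 1) between groups of nectary lines for each of the 9 contigs, with the SE from the limma fit on 21 libraries; filled points have an adjusted p under 0.05. The class comparisons share libraries. In high minus medium 7 points are filled and lie above 0, in medium minus low none is filled, and Helianthus12407 is the only filled point below 0 in high minus low.

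Compared with the 6 crosses, ER differed in 3 of the 9, where 24.1% of all contigs were called. Of those with every line mean at least 500, 29.7% were called. Helianthus14850 was higher in ER (10955 ± 2204, n = 3, against 4902 ± 5909, n = 18; log2 difference 1.90, SE 0.39; limma adjusted p = 0.00129). Helianthus13337 was higher too (6155 ± 1177 against 4219 ± 1441; 0.61, SE 0.21; adjusted p = 0.0384), while Helianthus19597 was lower (546 ± 344 against 2037 ± 2231; -1.75, SE 0.57; adjusted p = 0.0325). The crosses are no uniform group for Helianthus14850, since line 434 lay above ER. The call of Helianthus19597 was lost without replicate 2 (log2 difference -1.03, adjusted p = 0.295) or replicate 3 of ER (0.0606). That of Helianthus13337 was lost after rescaling (0.0726), without replicate 1 or 3 of ER (0.141 and 0.227) and without 5 single cross libraries (up to 0.0513). These were replicates 1 and 2 of 412, replicate 1 of 434, replicate 2 of 441 and replicate 3 of 467. With replicate 3 of ER left out only Helianthus14850 was called, and with the line as the unit none was (1.24% of all contigs were). Without replicate 3 of 452 and replicate 2 of 456 the same 3 were called, at log2 differences of 1.77, 0.53 and -1.91, against 36.7% of all contigs.

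Lines of the same class were compared as well. Of contigs with every line mean at least 500, limma called 7.32% between 434 and 467. It called 10.4% of them between 452 and 456, and 3.29% between 412 and 441. Between 434 and 467, 1 of 9 was called against 10.4% of all contigs: Helianthus14850, 4.60-fold higher in 434 (17412 ± 894 against 4067 ± 1675; log2 difference 2.20, SE 0.51; limma adjusted p = 0.00655, or 0.0506 without replicate 2 of 467). Its log2 difference between the high and low classes was 1.97. Without replicate 3 of 452 and replicate 2 of 456, Helianthus42148 was called as well, lower in 434 (-0.78, adjusted p = 0.0225), against 16.5% of all contigs. Between 452 and 456 the call was Helianthus42148, 2.75-fold higher in 452 (1534 ± 549 against 619 ± 336; 1.46, SE 0.38; adjusted p = 0.0162), again 1 of 9, against 11.6% of all contigs. It was lost without replicate 3 of 452 (adjusted p = 0.058), without replicate 2 of 456 (log2 difference 0.86, adjusted p = 0.0672) and without both (0.59, adjusted p = 0.151). Without both, 3 others were called instead, all lower in 452, against 19.7% of all contigs: Helianthus13337 (-1.32, adjusted p = 4.56e-05), Helianthus34137 (-1.16, adjusted p = 0.00365) and Helianthus19597 (-2.89, adjusted p = 0.0105). With replicate 1 of 452 or replicate 2 of 456 left out, 3 of 9 were called, and without replicate 3 of 452 none was. Between 412 and 441 limma called none, against 5.98% of all contigs, and 1 had an unadjusted p under 0.05. That was Helianthus13337, at 4556 ± 314 in 412 and 2722 ± 216 in 441 (log2 difference 0.74, adjusted p = 0.148), with no overlap between these lines. It passed without replicate 2 of 456, and without that library and replicate 3 of 452 together (adjusted p = 0.00217, against 11.3% of all contigs).

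Across the 21 nectary libraries the 9 contigs did not vary as 1 group. Over their 36 pairs, Pearson's r of log2 values ran from -0.48 to 0.97 with a median of 0.38, and 11 pairs were below 0. Without replicate 3 of 452 and replicate 2 of 456 the median was 0.20 and the range -0.72 to 0.99. All points share libraries and lines, so these are descriptions. The closest pair was Helianthus28296 and Helianthus28297 (r = 0.97, and 0.99 without replicate 3 of 452 and replicate 2 of 456). Helianthus14850 had r of 0.58 to 0.68 with Helianthus13337, Helianthus36795, Helianthus28296 and Helianthus28297. Helianthus12407 had a negative r with 6 of the 8 others, most with Helianthus36795 (-0.48, and -0.72 without those libraries).

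Helianthus14850 varied together with some of the 12 matched genes of the nectary list and not with others. Its r was 0.91 with the MYB21 match, 0.90 with SWEET9, 0.89 with the sucrose synthase SUS4 and 0.82 with the cell wall invertase CWINV2, but 0.10 with CRC, a YABBY factor needed for nectary formation (n = 21; 0.93, 0.88, 0.87, 0.79 and -0.13 without replicate 3 of 452 and replicate 2 of 456). For the rest of the list it was 0.83 with AGAMOUS, 0.80 with SWEET10 and 0.77 with SEP1, and 0.07 with the sucrose phosphate synthase SPS1F, -0.16 with SEP3, -0.19 with ARF8 and -0.32 with ARF6. Helianthus13337 had r of 0.76 with SWEET9, 0.72 with MYB21 and 0.81 with AGAMOUS (0.69, 0.63 and 0.85 without that pair of libraries). Its r was 0.72 with SUS4, 0.42 with CWINV2 and 0.44 with CRC (0.63, 0.24 and 0.43 without the pair). Helianthus28296 and Helianthus28297 had 0.78 and 0.77 with SUS4 (0.64 and 0.67 without the pair). With SWEET9 they had 0.54 and 0.53 (0.28 and 0.32), and with CRC -0.06 and -0.22 (-0.63 and -0.62). For Helianthus36795 r ran from 0.40 with CRC to 0.80 with AGAMOUS (-0.34 and 0.56 without the pair). For Helianthus42148 it ran from -0.41 with CRC to 0.55 with CWINV2, and for Helianthus34137 from 0.19 with CRC to 0.54 with SUS4. Helianthus19597 and Helianthus12407 had a negative r with SWEET9, CWINV2, MYB21, AGAMOUS and SUS4, but 0.13 and 0.18 with CRC. The annotated contigs most like Helianthus14850 were matches to the iron-sulfur subunit SDH2-2 of succinate dehydrogenase (Helianthus40412, r = 0.94), a dirigent-like protein (Helianthus37052, r = 0.94) and the delta subunit of the mitochondrial ATP synthase (Helianthus19228, r = 0.93). All 3 had r of at least 0.92 without that pair of libraries. For Helianthus13337 the closest were matches to a hypothetical protein (Helianthus37215, r = 0.96), a tautomerase family protein (0.93) and casein kinase I (0.92). Helianthus36795 was most like matches to FAB1C (Helianthus32232, r = 0.97), manganese superoxide dismutase 1 (0.96) and the SNF1 kinase homolog 10 (0.95). In replicate 3 of 452 these 3 matches read 19, 17 and 31. Their r was 0.88, 0.82 and 0.86 without that library alone, and 0.97, 0.96 and 0.95 without replicate 2 of 456 alone. Helianthus28296 was nearest to a DAHP synthase match, of the shikimate pathway (r = 0.88), a gibberellin 2-oxidase match (0.86) and a P-loop hydrolase match (0.85), and Helianthus19597 to matches to a RING/U-box protein (0.82), a SET7/9 family protein (0.82) and an ERD family protein (0.76). For Helianthus28296 these fell to 0.81, 0.77 and 0.73 without replicate 3 of 452 and replicate 2 of 456. For Helianthus19597 they were 0.86, 0.85 and 0.77 without those libraries. Its rank correlations (Spearman) over all nectary libraries were lower, at 0.52, 0.62 and 0.59.

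Contig numbers carried information on relatedness, which was examined after the data were seen. Where both contigs of a consecutive pair had an Arabidopsis match, the match was the same for 41.6% of 9846 pairs, for 18.1% at a distance of 2 and for 0 of 8580 pairs at a distance of 100. The median r between consecutive contigs was 0.21, and 11.9% of pairs exceeded 0.8. At a distance of 2 these were 0.12 and 6.9%, and at a distance of 100 they were 0.04 and 2.28%. Reads could be split among contigs that share sequence, so the level of any one of them is uncertain, and whether neighbours below belong to 1 transcript was not tested.

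Helianthus13337 follows Helianthus13335 and Helianthus13336, both matches to AGAMOUS, a MADS-box factor that specifies stamens and carpels. The r with Helianthus13335 was 0.81, with line means of 19335 in ER, 17065 in 434 and 4895 in 452, the same top and bottom lines as Helianthus13337. With Helianthus13336 it was 0.45. Both AGAMOUS matches were low in leaf, at 18.7 ± 4.51 and 20 ± 8.66, outside the limit of 10.

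Helianthus34137 follows a mini zinc finger 2 match, Helianthus34135, which belongs to a family of small zinc finger proteins (r = 0.84), and the unannotated Helianthus34136 (r = 0.90). The last 2 had leaf means of 16.0 ± 2.65 and 16.3 ± 3.79 and nectary means of 5923 and 6999. The ratio of Helianthus34136 to Helianthus34137 was not constant, at 3.32 to 7.93 in the 21 nectary libraries. All 3 were lowest in line 452 and highest in line 467.

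Helianthus28296 and Helianthus28297 belong to a longer run. Helianthus28295, also unannotated, had r = 0.99 with Helianthus28296 and missed the choice only in line 456, with a mean of 410 there and a leaf mean of 3.33. Helianthus28294, matched to an uncharacterized protein in UniRef, behaved differently among lines. It read 1493, 2396 and 2170 in 434 and 2749, 1617 and 1979 in 467, but 3, 4 and 2 in 441 and 133, 1 and 1 in ER, where Helianthus28296 stood at 1356 ± 712 and 1863 ± 530. The unannotated Helianthus28292 (r = 0.82 with Helianthus28296) also departed from the order of lines. Its means were 2506 in 467 but 1108 in 434, below 1518 in 441 and 1338 in 412. A separate run of 5 unannotated contigs, Helianthus26001 to Helianthus26005, had r of 0.91 to 0.97 with Helianthus28296 and the same order of high lines above the rest. All 5 fell short in line 456 or exceeded the leaf limit: Helianthus26004 averaged 33.7 in leaf and 5496 in nectaries, and Helianthus26005 averaged 144 and 8071.

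Helianthus36795 stands near Helianthus36792 and Helianthus36793, matches to glucan synthase-like 4, a callose synthase family member (r = 0.78 and 0.87). Without replicate 3 of 452 and replicate 2 of 456 these were 0.23 and 0.56, while r with the unannotated Helianthus36794 went from 0.16 to 0.62. In replicate 3 of line 452 Helianthus36793 read 2 and Helianthus36792 read 244, whereas Helianthus36794 read 12460. Near Helianthus14850, the match to the exocyst subunit EXO70B1 (Helianthus14849) had r = 0.62, and the 3 other contigs within 2 numbers had r below 0 or nectary means too low to be compared. The annotated neighbours of Helianthus12407, Helianthus19597 and Helianthus42148 had r of at most 0.59, and those of Helianthus42148 included only 1 with a match, a threonine-tRNA ligase (r = -0.29).

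**Figure D5:**
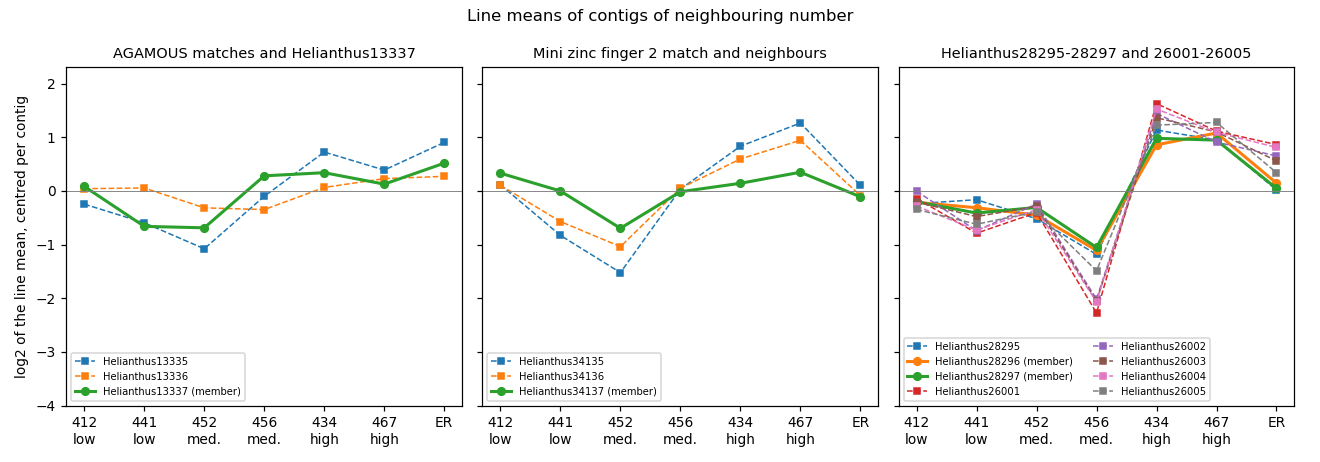
Line means of contigs with neighbouring numbers, as log2 centred on each contig's mean over 7 nectary lines, with the 4 chosen contigs as thick lines. Helianthus13337 has its highest mean in ER like Helianthus13335, Helianthus34137 is lowest in line 452 like its 2 neighbours, and Helianthus28295 to Helianthus28297 and Helianthus26001 to Helianthus26005 are all lowest in line 456 and higher in 434 and 467 than in the other crosses.

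Unannotated contigs were a minority among contigs with these levels. In all, 38 contigs met the limits on leaf and nectary level, and 9 of them (23.7%) had no match, against 53.7% of all 42063 contigs. Among contigs with every nectary line mean at least 500 but a leaf mean of at least 10, 9.59% (282 of 2941) had no match. The mirror choice, a leaf mean of at least 500 and every nectary line under 10, gave 25.9% (52 of 201). The share of unannotated contigs was 35.3% with a leaf limit of 5 and 21.7% with a limit of 20. No test was made of these shares. The 29 annotated contigs with the same levels carried 24 distinct Arabidopsis matches and 2 UniRef matches only. They included 3 matches to KNAT6, a knotted-like homeobox factor of meristems and organ boundaries, 2 to LBD25 and 1 to LBD21, both LOB domain proteins. Matches to SEP1 and SEP2, MADS-box partners of AGAMOUS in floral organs, and to the cytokinin response regulator ARR9 were among them too.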

How the data were processed

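RNA of 21 nectary and 3 leaf libraries of sunflower had been sequenced as 50-base paired ends in 2 lanes, per the labels' protocols. The deposited table holds an expression score for each contig and library, which the authors scaled to the upper quartile and gave as whole numbers, per the file headers. The header of ER replicate 3 does not name that normalization, although its values lay on the same scale. How the contigs were assembled and the reads aligned and counted is not stated in the labels. Left aside were 16 columns holding means and SDs of groups.

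The 9 contigs and the marker lists were chosen with earlier results of these data known. The scores are not counts and were taken as log2(value + 1), and a fold is on that scale, which understates changes of low values. The 38457 contigs averaging 10 or more in the nectary libraries were fitted with limma 3.58.1 in R 4.3.3, with 1 mean per line, a variance trend and no block, and the calling threshold was a p of 0.05 after Benjamini-Hochberg adjustment. An F test and 7 contrasts of lines were made, and the class contrasts share libraries. The worth of 1 read was read off the steps between low scores, with an error of at most 0.046% in 12 simulated libraries. The fit was tested on simulated data with 200 changed contigs. Those data had the same dispersion for every contig and no library made low, so they do not cover the spread seen in the 9. Files were read with Python 3.11.15, numpy 2.4.6 and pandas 2.3.3, and figures drawn with matplotlib 3.10.9. All 9 contigs were named. The contigs named beside them were the 3 annotated contigs most correlated with each of the 5 of highest mean, those just outside each threshold, and contigs of neighbouring number, the last chosen after the data were seen.

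Alternatives were another added constant, other filters, median-ratio rescaling, a block for the replicate number, sample weights, the compared lines alone, the line as the unit, other thresholds of the choice and each library left out.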

Additional observations from a re-analysis of the deposited data

Results flagged for a closer look

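Helianthus36795 in replicate 3 of line 452 stood at 17, whereas the other 5 medium libraries read 1088 to 4429. Its gap to the nearest of them was 0.745 of the class's range on the log2 scale, above Dixon's 95% critical value for 6 libraries. This was 1 of 27 sets of 6 libraries examined (9 contigs in 3 classes), and chance flags about 1 in 20. Of its neighbours by number, Helianthus36793 read 2 there against 68 and 37 in replicates 1 and 2, and Helianthus36794 read 12460 against 15263 and 5286. The cause was not tested.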

How the results depend on the processing

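Depth limits the leaf values, which rest on 3 to 23 estimated reads per contig over 3 libraries; each class rests on 2 lines and each line on 3 pools. No difference of a contig between lines changed direction while called. Counts of the 9 that were called moved by over 1.5 times as follows. Sample weights gave 9 among the 7 lines, 7 for high against low, 2 for medium against low, 2 for 434 against 467, 3 for 452 against 456 and 2 for 412 against 441; over all contigs these fits called 76.3%, 51.8%, 22.9%, 20.5%, 18.7% and 14.9%. Leaving out replicate 3 of 452 and replicate 2 of 456 together, chosen after the data were seen, gave 9, 7, 2, 3 and 1 for the same comparisons except medium against low, beside 68.9%, 47.6%, 16.5%, 19.7% and 11.3% of all contigs. The compared lines fitted alone gave 7 for high against low, 3 for high against medium, 2 for 434 against 467, 0 for 452 against 456 and 1 for 412 against 441, beside 47.5%, 29.1%, 16.7%, 3.53% and 9.87%. The line as the unit gave 0 for high against low, 1 for high against medium and 0 for ER, beside 0.78%, 1.57% and 1.24%. A constant of 5 gave 2 for 452 against 456. Leaving out each library in turn gave 3 to 8 among lines, 2 to 6 for high against low, 0 to 1 for medium against low, 5 to 8 for high against medium, 1 to 3 for ER, 0 to 1 for 434 against 467, 0 to 3 for 452 against 456 and 0 to 1 for 412 against 441. The cause of these shifts was not tested. The choice itself gave 18 contigs with a leaf limit of 20, 22 and 3 with line limits of 250 and 1000, and 7 to 11 with single libraries left out. After rescaling by median ratio it gave 6, all among the 9. The summed share rose to 0.173% in 412, 0.347% in 434 and 0.232% in 467 when the 10 highest contigs were left out of the total. Without Helianthus14850 and Helianthus13337 it was 0.000201% in leaf, 0.1001% in 412, 0.133% in 434, 0.0912% in 441, 0.0788% in 452, 0.102% in 456, 0.143% in 467 and 0.084% in ER.

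Replicate numbers did not pair the samples: deviations of same-numbered libraries correlated at -0.30 to 0.27 (63 pairs), and 7 of 21 libraries correlated best with their own number. With the replicate number as a block, 452 against 456 gave 2 calls in place of 1, and over all 72 combinations of contig and comparison 4 calls were gained and 0 lost.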
